A study of Mus musculus with 16 samples.

Results

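The oocyte and germ cell genes described here are 38 mouse genes named by symbol: genes of the egg coat and of proteins secreted by the oocyte, transcription regulators of the oocyte, maternal proteins stored in the egg, signalling genes of meiotic arrest, RNA regulators of germ cells, and the pluripotency factor Pou5f1. They were listed by name, with earlier results of these data known. A gene was measured where a probe set of the array matched its symbol alone, and the probe set with the highest mean level over the 16 arrays stood for it. This held for 34 of the 38 genes, among 18193 genes tested. Nlrp2, Npm2 and Nanos3 had no probe set under their symbols in the annotation used here, and Oas1d had only 1, which it shared with another gene.

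RNA of 16 single ovaries of newborn XX mice was hybridised to Affymetrix mouse genome arrays, 4 ovaries per genotype, to compare loss of the transcription factors RUNX1 and FOXL2, both of which act in pre-granulosa cells, the supporting cells around the oocytes. In Runx1 KO ovaries 1 Runx1 allele was null and the other floxed, a Sf1-cre transgene was present, and both Foxl2 alleles were intact. Foxl2 KO ovaries were null for Foxl2 on both alleles and had a floxed and a wild-type Runx1 allele without Cre. DKO ovaries combined the Runx1 null and floxed alleles, the transgene and both Foxl2 null alleles. Control ovaries had a floxed and a wild-type Runx1 allele, intact Foxl2 and no Cre. A floxed Runx1 allele was thus present in every group, and Sf1-cre is active in somatic cells of the gonad and not in germ cells. The Foxl2 null alleles, and the 1 Runx1 null allele of Runx1 KO and DKO ovaries, were carried by all cells, germ cells included. Since only Runx1 KO and DKO ovaries had the transgene, Cre and loss of Runx1 cannot be told apart, and the mice had a mixed genetic background.

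Germ cells of the mouse ovary enter meiosis before birth and pause in its first prophase. Around birth their nests break up into primordial follicles, single oocytes wrapped in a layer of granulosa cells, and some of the oocytes start to grow. Growing oocytes build up the zona pellucida, secrete factors of the TGF-beta family and store proteins and RNA for the embryo, whereas RNA-binding proteins such as DDX4 and DAZL are present in germ cells well before that. Several transcription factors of the oocyte act through short DNA elements: SOHLH1, SOHLH2 and FIGLA are basic helix-loop-helix proteins that bind E-boxes, and NOBOX and LHX8 are homeobox proteins.

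The start-site windows of 4 of the genes are shown because these genes stand at both ends of the spread described below. Zp3, Ooep and Padi6 varied widely between ovaries of 1 genotype, and Ddx4 did not. Each window is the RefSeq sequence of GRCm38.p6 of 300 bases, with 250 bases before the annotated start and 50 after it, read 5′ to 3′ on the gene's strand. Capitals mark the motifs searched on both strands, the E-box CANNTG and the homeobox elements TAATTG, its variant TAATTA and the related TGATTG.
Zp3 (chr5:135979855-135980154, plus strand): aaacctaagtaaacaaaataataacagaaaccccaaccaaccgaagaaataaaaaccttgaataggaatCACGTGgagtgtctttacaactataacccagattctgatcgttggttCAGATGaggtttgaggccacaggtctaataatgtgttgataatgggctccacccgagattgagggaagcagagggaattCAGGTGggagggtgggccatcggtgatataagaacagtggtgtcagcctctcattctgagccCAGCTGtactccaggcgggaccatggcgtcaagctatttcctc
Ooep (chr9:78378539-78378838, minus strand): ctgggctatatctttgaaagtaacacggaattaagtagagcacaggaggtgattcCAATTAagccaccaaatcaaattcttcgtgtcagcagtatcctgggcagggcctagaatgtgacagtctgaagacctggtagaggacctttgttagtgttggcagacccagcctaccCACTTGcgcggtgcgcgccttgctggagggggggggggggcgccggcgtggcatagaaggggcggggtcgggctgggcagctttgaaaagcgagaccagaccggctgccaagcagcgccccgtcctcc
Padi6 (chr4:140742594-140742893, minus strand): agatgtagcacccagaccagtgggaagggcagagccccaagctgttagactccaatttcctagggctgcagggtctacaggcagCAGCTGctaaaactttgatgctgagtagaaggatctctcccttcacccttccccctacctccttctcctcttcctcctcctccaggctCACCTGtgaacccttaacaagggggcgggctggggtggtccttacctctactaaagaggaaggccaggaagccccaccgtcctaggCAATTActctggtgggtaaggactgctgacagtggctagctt
Ddx4 (chr13:112652261-112652560, minus strand): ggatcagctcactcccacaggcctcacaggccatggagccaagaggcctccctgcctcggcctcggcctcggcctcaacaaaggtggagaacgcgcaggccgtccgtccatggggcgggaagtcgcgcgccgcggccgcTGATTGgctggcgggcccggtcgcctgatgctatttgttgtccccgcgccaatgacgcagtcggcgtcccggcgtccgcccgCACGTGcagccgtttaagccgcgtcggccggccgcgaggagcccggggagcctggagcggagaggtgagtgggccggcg
The Zp3 window held 4 E-boxes, which began 181, 134 and 55 bases before the start and 8 bases after it. The Ooep window had 1 E-box, 78 bases before the start, and the TAATTG element on the other strand 195 bases before it. In the Padi6 window E-boxes lay 166 and 78 bases before the start, and the TAATTG element on the other strand lay 9 bases after it. The Ddx4 window carried 1 E-box 29 bases before the start and TGATTG 111 bases before it. RefSeq windows were found for 26 of the 34 measured genes, 37 windows in all. An E-box was in 33 of these 37 windows and in 72.3% of all 32851 windows of the same length. TAATTG was in 3 of the 37 windows and 8.0% of all windows, TAATTA in 2 and 5.29%, and TGATTG in 8 and 14.0%. These are matches of letters and not measured binding sites.

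Across the arrays the deposited intensities had a common trimmed mean of 500, with medians of 134 to 177. The number of arrays limits the precision. Differences are given on the scale of log2(intensity + 16), which understates changes of dim genes, as the difference ± its standard error with n = 4 ovaries per group. A gene counts as called at a limma p under 0.05 after Benjamini-Hochberg adjustment over 18193 genes. Foxl2 had intensities of 484.2 to 889.7 in Foxl2 KO and 569.8 to 839.1 in DKO ovaries, against 2774 to 4241 in control ovaries. Runx1 had 1701, 1221, 931.9 and 2127 in Runx1 KO replicates 1 to 4, 2111 to 2370 in DKO ovaries and 2142 to 2359 in control ovaries. Runx1 KO replicate 4 and all 4 DKO ovaries thus lay close to the control ovaries. Whether the Runx1 probe set covers the deleted exons was not looked up, so its level does not tell which ovaries had lost Runx1. Control replicate 4 stood apart. Its score for erythroid genes, 8 measured of 13 listed (a score is the average, over the genes, of the log2 difference between the ovary and the mean of all 16), was 1.83, against at most 0.12 in any other ovary, its score for 4 leukocyte genes was 0.75, and it had the lowest score over the 34 germ cell genes, -0.63. The part of blood cells in its germ cell values was not tested, and the medians of all genes and of each role are given with and without it. As a background level, 5 Y-linked genes, which XX ovaries lack, had means of at most 6.16 on the log2 scale, an intensity of 55.4. Sry, at 8.30, was left out after its value was seen. Mos alone of the 34 genes had a mean below that level. This depends on leaving out Sry, since further genes had means below that of Sry, among them Zp1, Oosp1 and Rfpl4.

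None of the 34 genes was called in any knockout, where 0.121% (Runx1 KO), 1.52% (Foxl2 KO) and 2.13% (DKO) of all genes were. The median share of their variance that lay between genotypes was 17.1%, near the 20.3% over all genes. With so few ovaries per genotype, most of the variance is expected within genotypes even where genotype has no effect. The larger part within genotypes is therefore not read as a property of these genes. Egg coat genes and a group of maternal genes were several-fold brighter in some ovaries than in others of the same genotype. The germ cell RNA regulators spread about as much as the typical gene, with a median SD within genotypes of 0.309 (log2), against 0.294 over all genes. For example Zp3 spanned 9.49-fold over the 16 ovaries and Dazl 1.87-fold. In bulk RNA, fewer oocytes and less RNA per oocyte cannot be told apart.

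**Figure D1:**
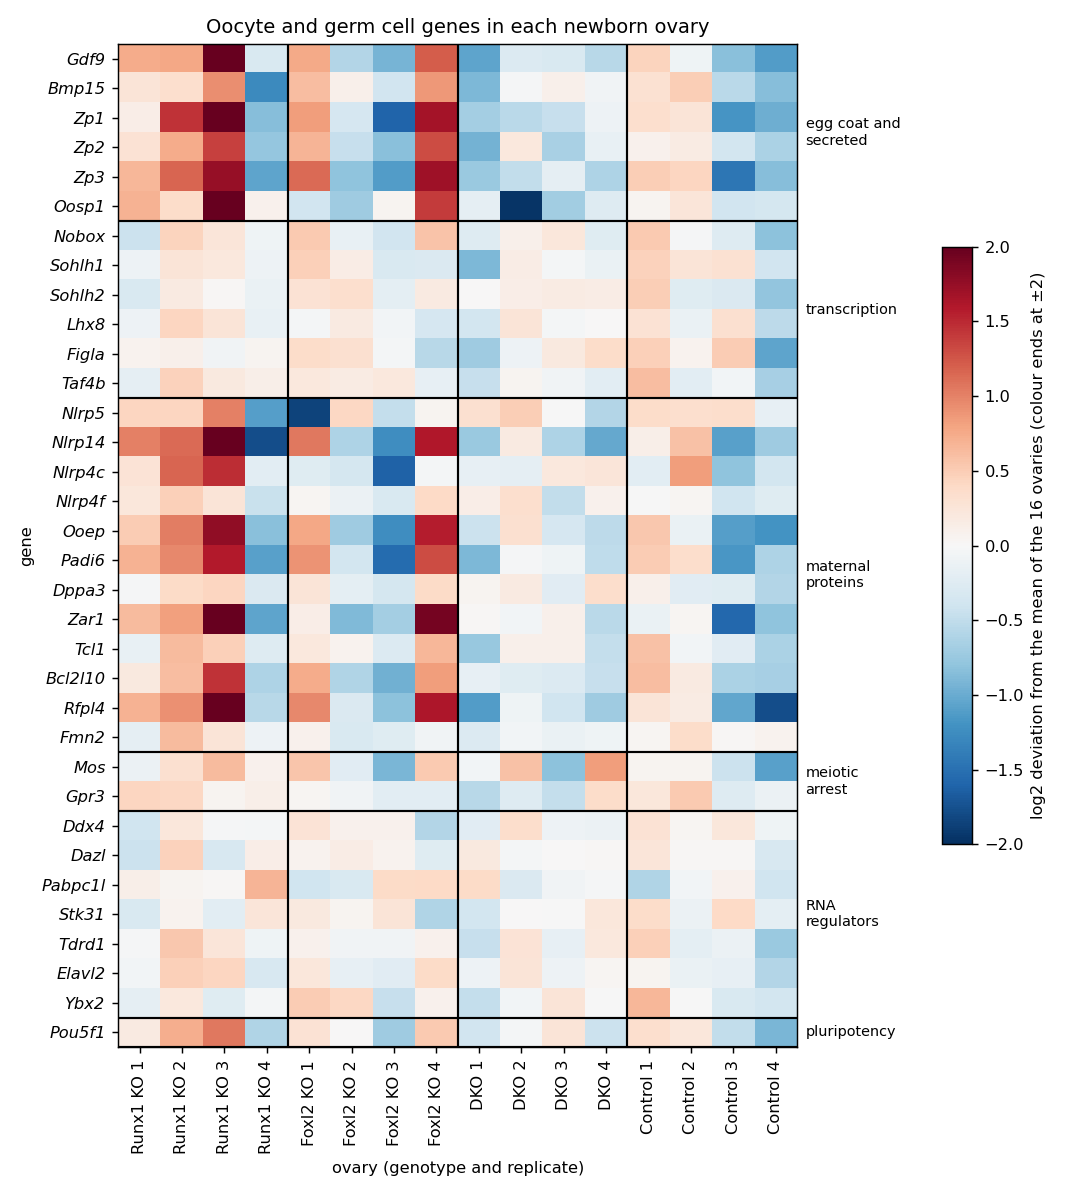
Deviation of each of the 34 genes (rows, grouped by role) from its own mean over the 16 ovaries (columns, by genotype and replicate), in log2 units from blue (low) to red (high). Egg coat and many maternal genes are red in Runx1 KO replicate 3 (role score 1.71 for egg coat genes) and Foxl2 KO replicate 4 (1.35) and blue in Runx1 KO replicate 4 (-0.69) and Foxl2 KO replicate 3 (-0.80), while the rows of the RNA regulators are pale.

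The egg coat and secreted genes comprised Zp1, Zp2 and Zp3, which encode glycoproteins of the zona pellucida, Gdf9 and Bmp15, growth factors by which the oocyte acts on granulosa cells, and Oosp1, an oocyte-secreted protein. Gdf9 had intensities of 667.7, 687.8, 1726 and 317.0 in Runx1 KO replicates 1 to 4, 676.4, 255.6, 199.7 and 930.4 in Foxl2 KO, 180.9, 324.5, 316.3 and 264.0 in DKO, and 541.2, 368.8, 214.6 and 173.7 in control replicates 1 to 4. It was high in 3 of the 4 Runx1 KO ovaries and in 2 of the 4 Foxl2 KO ovaries, and each knockout group overlapped the control group. Relative to control, its log2 difference was 1.22 ± 0.52 in Runx1 KO (limma adjusted p = 0.625, unadjusted 0.0314), the smallest p among the 34 genes in that comparison. It was 0.51 ± 0.52 in Foxl2 KO (limma adjusted p = 0.793) and -0.15 ± 0.52 in DKO (limma adjusted p = 0.946). Without Control replicate 4 the Runx1 KO difference was 0.99 ± 0.55 (limma adjusted p = 0.904).

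Zp3 had intensities of 1759, 2499, 3744 and 526.1 in Runx1 KO replicates 1 to 4, 2440, 629.9, 499.7 and 3599 in Foxl2 KO, 655.8, 785.7, 972.4 and 715.8 in DKO, and 1561, 1488, 394.7 and 604.5 in control replicates 1 to 4. Of the Runx1 KO ovaries 3 lay above the whole control range, as did 2 of the Foxl2 KO ovaries, and the rest of the single knockout ovaries and the 4 DKO ovaries lay inside it. The log2 difference of Zp3 from control was 0.98 ± 0.66 in Runx1 KO, 0.57 ± 0.66 in Foxl2 KO and -0.16 ± 0.66 in DKO (limma adjusted p = 0.783, 0.820 and 0.955). Zp2 had 2754, 3742, 5820 and 1303 in Runx1 KO, 3610, 1620, 1247 and 5537 in Foxl2 KO, 1151, 2597, 1426 and 2021 in DKO, and 2386, 2503, 1726 and 1436 in control replicates 1 to 4. The same single knockout ovaries were high and low as for Zp3. Its difference from control was 0.60 ± 0.47 in Runx1 KO, 0.36 ± 0.47 in Foxl2 KO and -0.19 ± 0.47 in DKO (limma adjusted p = 0.822, 0.845 and 0.921).

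Oosp1 was dim, with intensities of 118.2, 91.25, 325.6 and 72.21 in Runx1 KO, 47.91, 34.84, 70.46 and 204.4 in Foxl2 KO, 57.41, 5.44, 35.15 and 53.34 in DKO, and 70.13, 81.94, 47.67 and 49.23 in control replicates 1 to 4. The 4 Runx1 KO ovaries all lay above the 4 DKO ovaries, 3 of which were under the Y-linked background of 55.4. The DKO minus Runx1 KO difference was -1.57 ± 0.49 (limma adjusted p = 0.200, unadjusted 0.00578), the smallest p of the 34 genes in that comparison. It was also the gene with the smallest p for DKO against Foxl2 KO, at -0.87 ± 0.49 (limma adjusted p = 0.995, unadjusted 0.0964). Zp1 spanned 72.12 to 1111 over the 16 ovaries and Bmp15 29.78 to 194.3, and in both the highest ovary was Runx1 KO replicate 3. As a group the 6 genes had differences from control of 0.22 to 1.22 in Runx1 KO (median 0.94), 0.21 to 0.57 in Foxl2 KO (median 0.48) and -0.66 to -0.05 in DKO (median -0.15). Without Control replicate 4 the medians were 0.82 in Runx1 KO, 0.24 in Foxl2 KO and -0.33 in DKO, and Bmp15 in Runx1 KO turned to -0.02 ± 0.45.

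**Figure D2:**
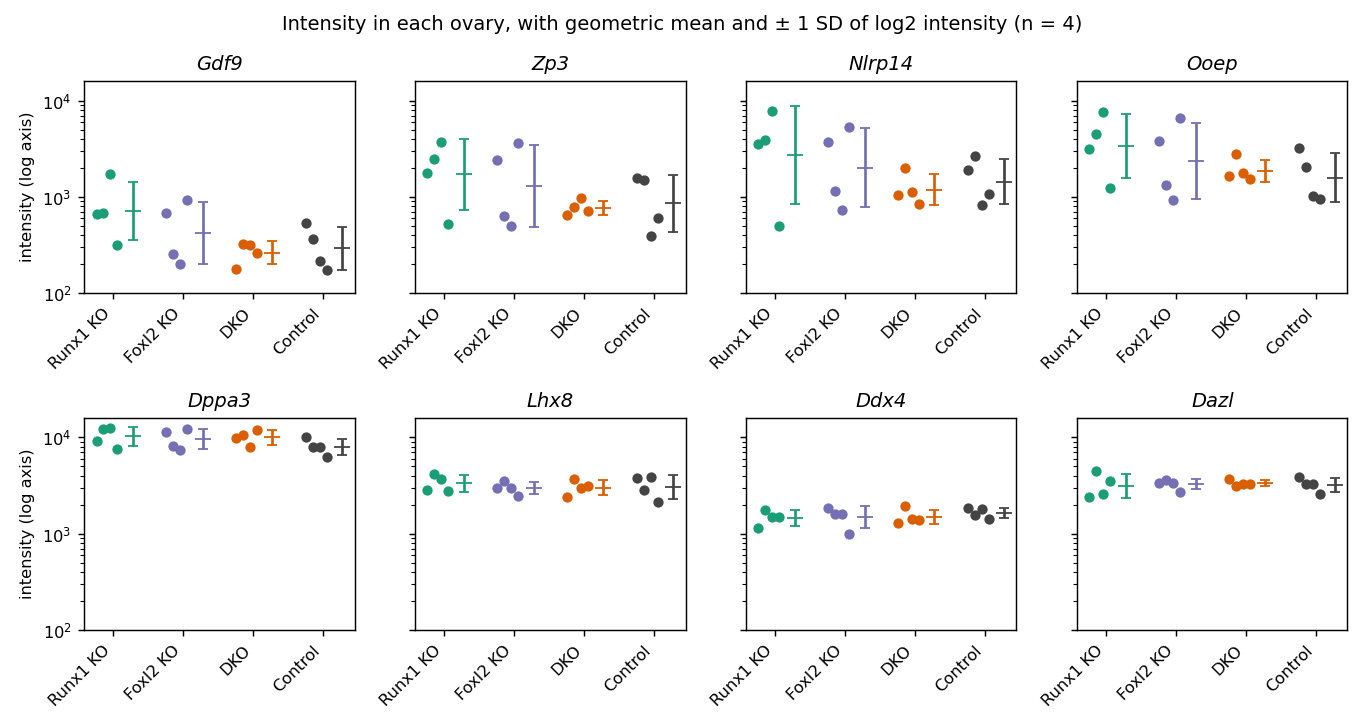
Intensity (log axis) of 8 genes in each ovary, with points in replicate order, the geometric mean and ± 1 SD of log2 intensity for n = 4 ovaries per genotype. Gdf9, Zp3, Nlrp14 and Ooep (upper row) spread widely within Runx1 KO and Foxl2 KO ovaries and less in DKO ovaries, and Dppa3, Lhx8, Ddx4 and Dazl (lower row) stay close together in all 4 genotypes.

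The 12 measured maternal genes differed widely in their spread. Nlrp5 (MATER), a member of the subcortical maternal complex, a protein assembly under the surface of the egg, had intensities of 6619, 6606, 9899 and 2274 in Runx1 KO, 1352, 6539, 3510 and 5080 in Foxl2 KO, 6163, 6941, 4887 and 3275 in DKO, and 6354, 6173, 6260 and 4373 in control replicates 1 to 4. Control replicates 1 to 3 were nearly level, and the lowest ovary was Foxl2 KO replicate 1, in which most egg coat genes were high. Its difference from control was -0.03 ± 0.46 in Runx1 KO, -0.69 ± 0.46 in Foxl2 KO and -0.16 ± 0.46 in DKO (limma adjusted p = 0.992, 0.655 and 0.932).

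Ooep, Padi6 and Nlrp14 were not on the list of genes to be given ovary by ovary and were chosen for this after their values were seen. Ooep, another member of the complex, had 3173, 4528, 7600 and 1238 in Runx1 KO, 3822, 1344, 926.2 and 6587 in Foxl2 KO, 1642, 2772, 1757 and 1544 in DKO, and 3213, 2030, 1025 and 958.7 in control replicates 1 to 4. Padi6, a peptidylarginine deiminase family member needed for the cytoplasmic lattices of the egg, had 2642, 3181, 4920 and 757.9 in Runx1 KO, 3029, 1255, 548.1 and 4019 in Foxl2 KO, 864.9, 1596, 1525 and 1139 in DKO, and 2319, 2071, 720.3 and 1053 in control replicates 1 to 4. Nlrp14, an oocyte protein of the NLR family, had 3570, 3885, 7854 and 503.7 in Runx1 KO, 3687, 1144, 734.2 and 5354 in Foxl2 KO, 1041, 1996, 1139 and 854.9 in DKO, and 1900, 2637, 817.3 and 1073 in control replicates 1 to 4. All 3 genes were highest in Runx1 KO replicate 3, with Foxl2 KO replicate 4 next, and in the single knockouts they were low in Runx1 KO replicate 4 and Foxl2 KO replicate 3. Their differences from control lay between 0.77 and 1.09 in Runx1 KO, each with a standard error of 0.61 or more, and limma adjusted p ran from 0.735 to 0.825.

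Rfpl4, an oocyte RING finger protein gene, was dim in most ovaries. It had intensities of 124.7, 148.9, 379.5 and 43.65 in Runx1 KO, 153.5, 55.57, 33.57 and 251.8 in Foxl2 KO, 24.27, 66.38, 50.12 and 37.46 in DKO, and 88.56, 82.17, 26.43 and 9.62 in control replicates 1 to 4. Of the 8 DKO and control ovaries, 5 lay under the Y-linked background. The difference from control was 1.40 ± 0.60 in Runx1 KO (limma adjusted p = 0.639, unadjusted 0.0343), 0.96 ± 0.60 in Foxl2 KO (limma adjusted p = 0.627) and 0.02 ± 0.60 in DKO (limma adjusted p = 0.997). Without Control replicate 4, the lowest ovary, these were 1.01, 0.57 and -0.37, each ± 0.62 (limma adjusted p = 0.917, 0.903 and 0.893). Rfpl4 also had the smallest p for the interaction, which asks whether loss of Runx1 acts otherwise without Foxl2, at -2.35 ± 0.85 (limma adjusted p = 0.858, unadjusted 0.0147).

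Dppa3 (also called Stella), a maternal factor that protects the methylation of the early embryo's genome, had 9269, 12206, 12614 and 7647 in Runx1 KO, 11268, 8209, 7376 and 12278 in Foxl2 KO, 9795, 10660, 7979 and 11951 in DKO, and 10029, 8024, 7918 and 6237 in control replicates 1 to 4. Its highest ovary was 2.02 times the lowest, and the groups overlapped. The difference from control was 0.36 ± 0.21 in Runx1 KO, 0.27 ± 0.21 in Foxl2 KO and 0.33 ± 0.21 in DKO (limma adjusted p = 0.738, 0.720 and 0.578). Nlrp4f (1.95-fold between the lowest and the highest ovary), the actin nucleator Fmn2 (1.95-fold) and Tcl1 (2.73-fold) were likewise steady. Zar1 spanned 17.3-fold, Nlrp4c 9.98-fold and Bcl2l10 5.80-fold. Zar1, which acts on stored maternal RNA, had the largest positive difference from control in DKO, at 0.50 ± 0.62 (limma adjusted p = 0.818). Over the 12 genes the median difference from control was 0.65 in Runx1 KO, 0.26 in Foxl2 KO and -0.07 in DKO, and without Control replicate 4 it was 0.50, 0.14 and -0.28.

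The 6 transcription regulators spanned 1.96-fold to 3.00-fold over the 16 ovaries. Lhx8, needed for oocytes to form primordial follicles and grow, had intensities of 2870, 4185, 3717 and 2779 in Runx1 KO, 3005, 3492, 2980 and 2447 in Foxl2 KO, 2389, 3682, 2997 and 3123 in DKO, and 3772, 2830, 3872 and 2138 in control replicates 1 to 4. Figla, required for zona gene transcription and primordial follicles, had 2460, 2502, 2228 and 2432 in Runx1 KO, 3022, 2936, 2269 and 1579 in Foxl2 KO, 1423, 2167, 2670 and 3027 in DKO, and 3259, 2452, 3342 and 1114 in control replicates 1 to 4. Lhx8 and Figla were both lowest in Control replicate 4, and Figla was low in Foxl2 KO replicate 4, where zona genes were high. Differences from control were 0.12, -0.05 and -0.03 for Lhx8, each ± 0.20, and 0.04, 0.02 and -0.06 for Figla, each ± 0.32, in Runx1 KO, Foxl2 KO and DKO, with limma adjusted p of 0.921 to 0.990. Without Control replicate 4 those of Figla were -0.31, -0.33 and -0.42, each ± 0.25 (limma adjusted p = 0.940, 0.805 and 0.617), and that of Lhx8 in Runx1 KO turned to -0.05 ± 0.19. The median over the 6 genes was 0.13 in Runx1 KO, 0.10 in Foxl2 KO and -0.04 in DKO, and without Control replicate 4 it was -0.05, -0.12 and -0.24.

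Sohlh1 and Sohlh2 act early in oocyte differentiation, upstream of Lhx8 and Nobox. Sohlh2 had 566.2, 798.2, 713.7 and 640.2 in Runx1 KO, 867.0, 892.2, 609.7 and 798.9 in Foxl2 KO, 707.9, 774.4, 793.4 and 780.9 in DKO, and 997.1, 592.1, 575.4 and 400.5 in control replicates 1 to 4. It gave the smallest p of the 34 genes in Foxl2 KO, at 0.36 ± 0.21 (limma adjusted p = 0.597), and without Control replicate 4 the difference was 0.16 ± 0.19 (limma adjusted p = 0.917). Control replicate 1 was above every knockout ovary and Control replicate 4 below every one. Sohlh1 had 885.1, 1140, 1106 and 889.2 in Runx1 KO, 1334, 1064, 766.9 and 776.9 in Foxl2 KO, 502.2, 1057, 930.6 and 864.7 in DKO, and 1313, 1137, 1184 and 727.1 in control replicates 1 to 4. It gave the smallest p in DKO, at -0.39 ± 0.24 (limma adjusted p = 0.569), and -0.57 ± 0.24 (limma adjusted p = 0.389) without Control replicate 4. DKO replicate 1 was its lowest ovary, and the other DKO ovaries lay within the control range. Nobox spanned 1002 to 2644 and Taf4b, a TFIID subunit, 346.2 to 861.7, and both were lowest in Control replicate 4.

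The 7 measured RNA regulators were the steadiest role, at 1.87-fold to 3.00-fold. Dazl, which controls translation in germ cells, had 2386, 4457, 2581 and 3537 in Runx1 KO, 3390, 3569, 3395 and 2730 in Foxl2 KO, 3700, 3150, 3246 and 3290 in DKO, and 3850, 3284, 3273 and 2576 in control replicates 1 to 4. Elavl2, an RNA-binding protein of oocytes and neurons, had 4850, 7035, 6807 and 4049 in Runx1 KO, 5894, 4484, 4318 and 6578 in Foxl2 KO, 4720, 6029, 4696 and 5207 in DKO, and 5232, 4611, 4495 and 3358 in control replicates 1 to 4. All 4 groups overlapped for both genes. Differences from control were -0.03, 0.02 and 0.06 for Dazl, each ± 0.18, and 0.34, 0.26 and 0.23 for Elavl2, each ± 0.20, in Runx1 KO, Foxl2 KO and DKO, with limma adjusted p of 0.704 to 0.986. Without Control replicate 4 those of Dazl were -0.14, -0.09 and -0.05, and the median over the 7 genes was -0.14, -0.05 and -0.09, against -0.03, 0.13 and 0.06 with it. Ddx4 (the germ cell helicase also called Mvh), given here after its values were seen, had 1144, 1782, 1497 and 1474 in Runx1 KO, 1833, 1618, 1606 and 1003 in Foxl2 KO, 1298, 1938, 1407 and 1399 in DKO, and 1867, 1560, 1785 and 1423 in control replicates 1 to 4. Foxl2 KO replicate 4, the ovary with the second-highest Zp3, had the lowest Ddx4. Its difference from control was -0.18, -0.16 and -0.14, each ± 0.19, in Runx1 KO, Foxl2 KO and DKO (limma adjusted p = 0.872, 0.832 and 0.833). Tdrd1, a scaffold of the piRNA pathway, Stk31, Ybx2 and the poly(A)-binding protein gene Pabpc1l made up the rest. Their highest ovary was 2.44 times the lowest for Tdrd1, 2.04 times for Stk31, 2.25 times for Ybx2 and 3.00 times for Pabpc1l.

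Of the meiotic arrest genes, Gpr3 encodes a receptor that keeps cAMP high in the oocyte, and Mos a kinase of the later arrest in the egg. Gpr3 had 154.3, 153.6, 116.0 and 121.3 in Runx1 KO, 114.8, 104.4, 93.66 and 93.45 in Foxl2 KO, 70.66, 90.73, 75.36 and 147.7 in DKO, and 132.2, 166.5, 89.79 and 101.2 in control replicates 1 to 4. DKO replicate 4 lay among the Runx1 KO ovaries and the other DKO ovaries below them, and the DKO minus Runx1 KO difference was -0.48 ± 0.20 (limma adjusted p = 0.463, unadjusted 0.0323). Mos had 45.37, 67.74, 87.12 and 55.17 in Runx1 KO, 81.89, 41.39, 19.59 and 79.60 in Foxl2 KO, 48.67, 84.68, 21.84 and 103.8 in DKO, and 53.45, 53.14, 33.36 and 15.42 in control replicates 1 to 4. These values lay on both sides of the Y-linked background in each knockout group and below it in all 4 control ovaries, so no order is drawn from them. Pou5f1, known from primordial germ cells and found again in growing oocytes, had 223.0, 334.6, 422.5 and 123.0 in Runx1 KO, 241.8, 197.6, 112.9 and 287.6 in Foxl2 KO, 146.1, 188.9, 237.0 and 141.2 in DKO, and 250.2, 232.4, 133.8 and 95.83 in control replicates 1 to 4. Like the zona genes it was highest in Runx1 KO replicate 3 and low in Runx1 KO replicate 4 and Foxl2 KO replicate 3. Its difference from control was 0.55 ± 0.36 in Runx1 KO, 0.24 ± 0.36 in Foxl2 KO and 0.06 ± 0.36 in DKO (limma adjusted p = 0.778, 0.868 and 0.967). Without Control replicate 4 these were 0.32, 0.01 and -0.17, each ± 0.37.

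**Figure D3:**
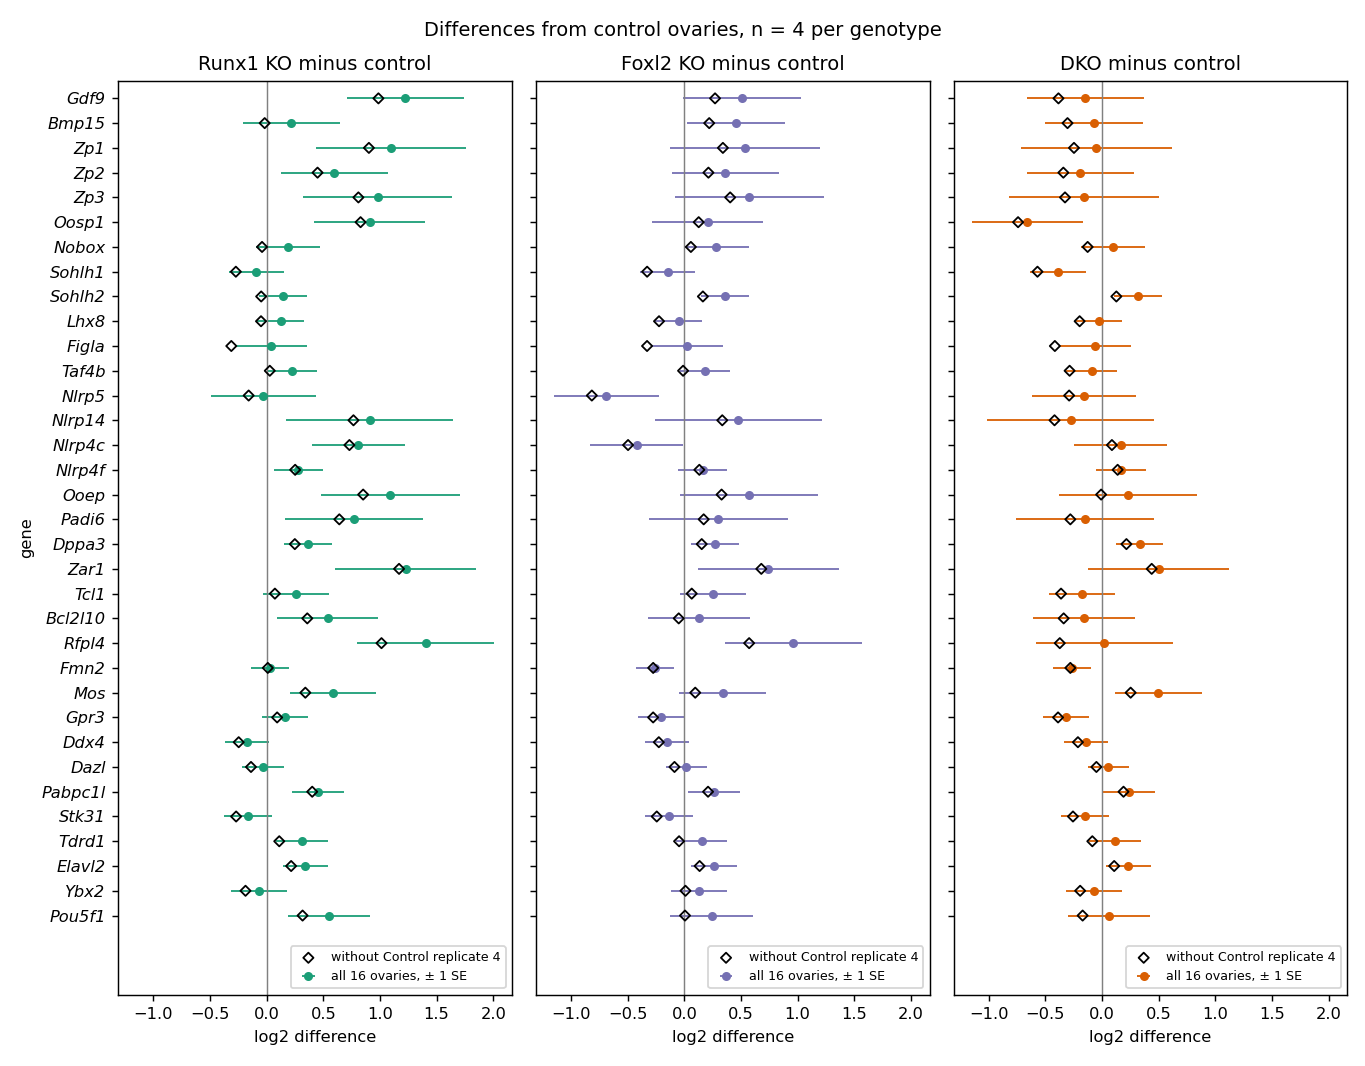
Log2 difference of each gene from control (horizontal axis) for Runx1 KO, Foxl2 KO and DKO ovaries, as filled points with ± 1 SE over all 16 ovaries and as open diamonds without Control replicate 4. In Runx1 KO 28 of 34 filled points lie to the right of 0, and in all 3 panels most diamonds lie to the left of the filled points.

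In all, 0 of the 34 genes were called in Runx1 KO against control, where 0.121% of all genes were called. In Foxl2 KO 0 were called (1.52% of all genes) and in DKO 0 (2.13%). At an unadjusted p under 0.05 there were 2 of 34 in Runx1 KO (Gdf9 and Rfpl4, against 7.34% of all genes), 0 in Foxl2 KO (11.0%) and 0 in DKO (12.4%). The 4 knockout and 4 control ovaries did not overlap for 0 genes in Runx1 KO (3.97% of all genes), 0 in Foxl2 KO (6.72%) and 1, Fmn2, in DKO (7.61%). Fmn2, named after its values were seen, had 629.3 to 740.5 in DKO, against 781.7 to 988.6 in control ovaries (log2 difference -0.26 ± 0.17, limma adjusted p = 0.576). Its other 2 probe sets had differences of -0.35 and 0.03. The difference from control was above 0 for 28 of 34 genes in Runx1 KO (median 0.33), 26 in Foxl2 KO (0.24) and 14 in DKO (-0.07), beside 56.3%, 58.9% and 57.3% of all genes (medians 0.04, 0.05 and 0.04). Since the 3 comparisons share the control ovaries, these counts are not independent of each other. Many of the genes also rose and fell together from ovary to ovary. Such counts, here and below, thus rest on the few ovaries of each genotype and not on 34 separate observations.

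Leaving out Control replicate 4, in which 23 of the 34 genes had their lowest control value, against 36.2% of all genes, moved every median down. It became 0.23 in Runx1 KO, 0.08 in Foxl2 KO and -0.25 in DKO, with 23, 21 and 8 genes above 0. Again 0 genes were called, and at an unadjusted p under 0.05 there were 0 in Runx1 KO (5.93% of all genes), 0 in Foxl2 KO (9.45%) and 1, Sohlh1, in DKO (10.9%). The Foxl2 KO and DKO medians thus moved by over 1.5 times with this 1 ovary, and the sign turned for 5 genes in Runx1 KO, 5 in Foxl2 KO and 6 in DKO. Leaving out Control replicate 1 instead moved the medians the other way, to 0.46 in Runx1 KO, 0.38 in Foxl2 KO and 0.13 in DKO, with 31, 27 and 25 genes above 0. The direction of the DKO median also turned without Control replicate 2 (0.05) and without DKO replicate 1 (0.05).

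Between the knockouts, 0 of 34 genes were called for DKO against Foxl2 KO (0.0605% of all genes), 0 for DKO against Runx1 KO (0.989%) and 0 for the interaction (0.0110%). At an unadjusted p under 0.05 there were 0 for DKO against Foxl2 KO (5.38% of all genes), 4 for DKO against Runx1 KO (Gdf9, Oosp1, Rfpl4 and Gpr3, against 9.43%), and 3 for the interaction (Gdf9, Oosp1 and Rfpl4, against 5.33%). The DKO values were the lower ones in all 4 of the genes in DKO against Runx1 KO. The median difference over the 34 genes was -0.29 for DKO minus Runx1 KO, with 4 above 0 and 30 below. For DKO minus Foxl2 KO it was -0.18, with 8 above 0 and 26 below. Of all genes, 52.9% and 50.1% were above 0 in these comparisons, with medians of 0.02 and 0.0002. For the interaction the median was -0.40, with 4 above 0 and 30 below, beside 45.3% of all genes above 0 (median -0.03). Without Control replicate 4 the interaction median of the 34 genes was -0.24, with 8 above 0. The interaction of Gdf9 was -1.88 ± 0.73 (limma adjusted p = 0.886, unadjusted 0.0210).

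The standard errors of these genes were large, with a median of 0.30 for a difference between 2 genotypes, against 0.20 over all genes. The SD within genotypes had a median of 0.467 over the 34 genes and 0.294 over all genes, on the log2 scale. It was above the 95th percentile of all genes (0.649) for 13 of the 34 genes, namely all 6 egg coat and secreted genes and 7 of the 12 maternal genes, and for 0 of the transcription regulators and RNA regulators. By role its median was 0.793 for egg coat and secreted genes, 0.714 for maternal genes, 0.347 for transcription regulators and 0.309 for RNA regulators. The share of the variance between genotypes ran from 0.86% for Figla to 41.3% for Oosp1.

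**Figure D4:**
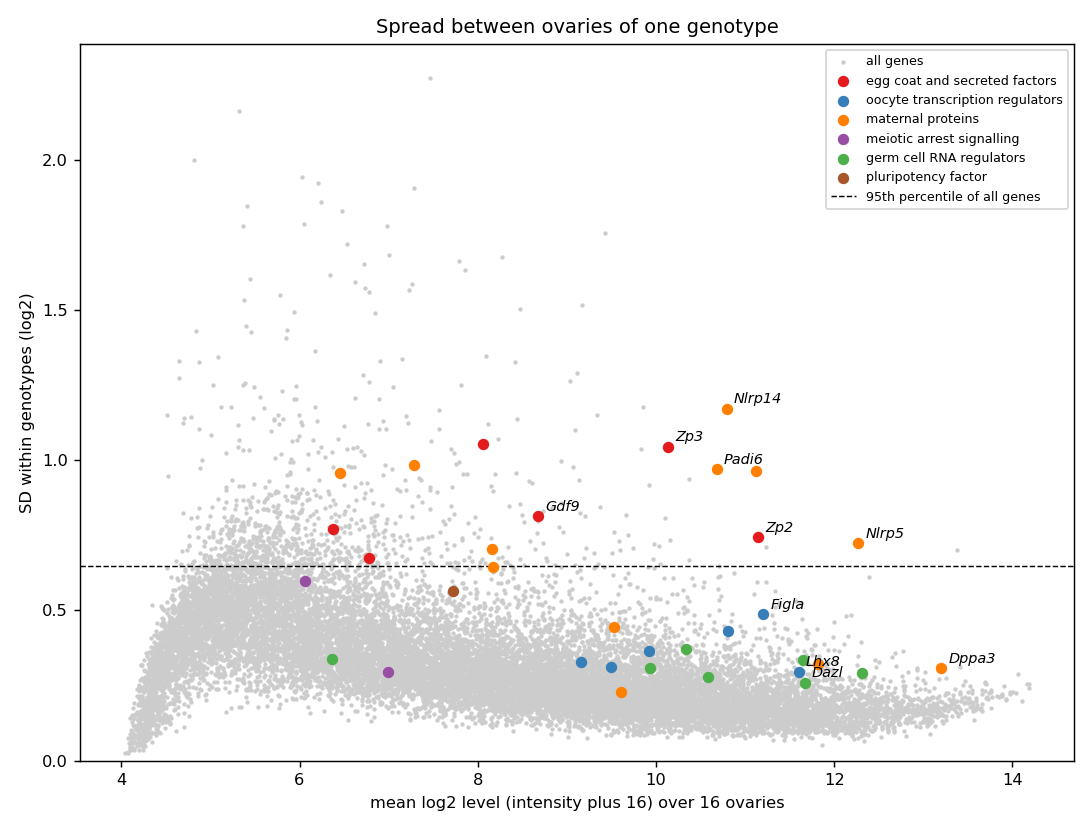
SD within genotypes (log2, vertical axis) against the mean log2 level over 16 ovaries (horizontal axis), with all 18193 genes in grey, the 34 genes coloured by role and the 95th percentile of all genes, 0.649, dashed. Nlrp14 (1.17), Zp3 (1.05) and Padi6 (0.97) stand far above most genes of like signal, while Lhx8 (0.30), Dazl (0.26) and Dppa3 (0.31) do not.

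Such a spread was rare among probe sets of high signal. At a mean log2 level above 10, a limit chosen after the values were seen, 14 of 4309 genes (0.325%) had an SD above the 95th percentile. Of the 14, 6 were among the 16 of the 34 genes with such a level: Zp2, Zp3, Nlrp5, Nlrp14, Ooep and Padi6. Zp3, at 10.13, lay just above this limit, and 10 of the 16 genes had no such SD. The list of other germ cell genes held 1 more, Dppa5a, and 7 were in neither list.

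With Control replicate 4 included, the spread of the genes as a whole was not widest in the knockouts. The median SD over the 34 genes was 0.406 in Runx1 KO, 0.455 in Foxl2 KO, 0.313 in DKO and 0.519 in control ovaries. The largest SDs were those of the single knockouts. Within Runx1 KO 7 of the 34 genes had an SD above 1 and within Foxl2 KO 8, against 0 within DKO and 0 within control ovaries. The share of all genes with such an SD was not computed, so these counts are not read as particular to the 34 genes. The median SD of the egg coat and secreted genes was 0.958 in Runx1 KO, 1.01 in Foxl2 KO, 0.410 in DKO and 0.679 in control ovaries, and that of the transcription regulators 0.235, 0.312, 0.253 and 0.528. Over all genes the median SD was 0.260 in Runx1 KO, 0.245 in Foxl2 KO, 0.246 in DKO and 0.269 in control ovaries. These SDs rest on 4 ovaries each, and their difference between genotypes was not tested. The control SDs were not computed without Control replicate 4. Leaving that ovary out lowered the median SD within genotypes over the 34 genes from 0.467 to 0.404. The place of the control group in these orders, and its count of SDs above 1, may depend on that ovary, in either direction. Zp3 in control replicates 1 to 4 was at 10.623, 10.555, 8.682 and 9.277 (log2). Leaving out replicate 4 would thus not narrow its control range.

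Within each genotype 1 or 2 ovaries held most of the extreme values. The highest value within Runx1 KO was in replicate 3 for 17 of the 34 genes (26.8% of all genes) and in replicate 2 for 14 (19.9%), and the lowest in replicate 4 for 21 (25.7%). Within Foxl2 KO replicate 4 was highest for 21 genes (24.9% of all genes) and replicate 3 lowest for 21 (23.4%). Within DKO replicate 2 was highest for 16 (20.7%) and replicate 1 lowest for 20 (25.1%), and within the control group replicate 1 was highest for 21 (26.5%). The role score of the egg coat and secreted genes was 0.46, 0.81, 1.71 and -0.69 in Runx1 KO, 0.61, -0.47, -0.80 and 1.35 in Foxl2 KO, -0.75, -0.51, -0.37 and -0.29 in DKO, and 0.28, 0.25, -0.79 and -0.80 in control replicates 1 to 4. That of the maternal genes was 0.36, 0.77, 1.26 and -0.70 in Runx1 KO, 0.26, -0.33, -0.81 and 0.85 in Foxl2 KO, -0.33, 0.08, -0.18 and -0.35 in DKO, and 0.23, 0.20, -0.66 and -0.64 in control replicates 1 to 4. Both scores put Runx1 KO replicate 3 first and Foxl2 KO replicate 4 second. The RNA regulators stayed within -0.18 to 0.29 in Runx1 KO, -0.07 to 0.13 in Foxl2 KO, -0.15 to 0.07 in DKO and -0.39 to 0.22 in control ovaries.

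Other measures of these ovaries are given beside the pattern, and their part in it was not tested. Runx1 KO replicate 4, low for egg coat genes, was the Runx1 KO ovary with Runx1 near the control level, and replicate 3, the highest, had the lowest Runx1. The DKO ovaries also had Runx1 near the control level, so this level does not tell which ovaries had lost Runx1. The ratio of the 3′ to the 5′ probe set of Gapdh, a measure of RNA integrity, was 5.22 in Runx1 KO replicate 3 and 4.98 in replicate 4, and 4.44 in Foxl2 KO replicate 4 and 4.47 in replicate 3, among 3.39 to 5.96 over all ovaries. The score of 10 pre-granulosa genes was 0.01 in Runx1 KO replicate 3 and 0.35 in replicate 4, and -0.28 in Foxl2 KO replicate 4 and 0.02 in replicate 3. The score of 5 stroma genes was 0.07 and 0.05 in the same Runx1 KO ovaries, and 0.19 and 0.35 in the same Foxl2 KO ovaries. That of 8 Sertoli genes was -0.09 in Runx1 KO replicate 3 and -0.47 in replicate 4, and 0.77 in Foxl2 KO replicate 4 and 0.20 in replicate 3. The score of 6 endothelial genes was -0.36 in Runx1 KO replicate 3 and 0.12 in replicate 4, and 0.06 in Foxl2 KO replicate 4 and 0.12 in replicate 3. For 4 genes of mesonephric epithelium it was -0.52 and 0.04 in these Runx1 KO ovaries, and 0.10 and -0.05 in these Foxl2 KO ovaries. The median intensity of the array was 136 in Runx1 KO replicate 3 and 177 in replicate 4, and 161 in Foxl2 KO replicate 4 and 169 in replicate 3.

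A second list held 39 further germ cell genes, among them Kit, the receptor by which granulosa cells signal to the oocyte, Mael and Piwil2 of the piRNA pathway, and egg genes such as Btg4 and H1f8. Of these 35 were measured, and 0 were called in any of the 6 comparisons. At an unadjusted p under 0.05 there were 5 of 35 in Runx1 KO (7.34% of all genes), 2 in Foxl2 KO (11.0%), 2 in DKO (12.4%), 1 for DKO against Foxl2 KO (5.38%), 5 for DKO against Runx1 KO (9.43%) and 6 for the interaction (5.33%). The median difference from control was 0.30 in Runx1 KO, 0.11 in Foxl2 KO and 0.07 in DKO, and without Control replicate 4 it was 0.23, 0.02 and -0.01. H1f8, the linker histone of the oocyte, and Btg4, which clears maternal RNA in the egg, had SDs within genotypes of 1.34 and 1.26, against 0.16 for Kit, 0.21 for Mael and 0.19 for Piwil2. The score of the list ran from -0.20 to 0.57 in Runx1 KO, -0.27 to 0.23 in Foxl2 KO, -0.18 to -0.01 in DKO and -0.51 to 0.14 in control ovaries. Its highest ovary was again Runx1 KO replicate 3 and its lowest Control replicate 4.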

How the data were processed

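The authors amplified RNA of single newborn ovaries and deposited 1 linear intensity per probe set and array, summarised with Affymetrix Expression Console 1.2 according to the submitters' processing notes. The study tested RMA-normalized log2 intensities, whereas the deposited values are linear, and the algorithm behind them is not given in the sources used here. Each array had a mean of 500 after trimming 2% at each end. All 16 value columns were matched to samples by their labels, with 0 columns left over. Of 45101 probe sets, 34945 matched 1 gene in the platform annotation, 932 several and 9160 none, and 64 were controls. Symbols were looked up by gene ID in RefSeq, with 0 updated.

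Here 16 was added to each intensity before log2, and the probe set with the highest mean stood for its gene. For 18193 genes, a model of the 4 group means was fitted with limma 3.58.1 (lmFit and eBayes, R 4.3.3), with 12 residual and 3.32 prior degrees of freedom. There were 6 two-sided contrasts: each knockout minus control, DKO minus each single knockout, and the interaction (DKO minus Foxl2 KO, less Runx1 KO minus control). Benjamini-Hochberg adjustment was made within a contrast, with a threshold of 0.05. The fit was tested on simulated data. The replicates are separate ovaries. The study describes the controls as littermates of the knockouts, and no label ties an ovary to a litter. The replicate numbers did not pair the ovaries.

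The genes and lists were chosen with earlier results of these data known. Values in every ovary were given for genes called in any contrast, for the gene with the smallest p in each contrast and for the 2 genes with the highest mean in each role (1 where the role has 1), and exceptions are named. The alternatives were equal array medians, quantile normalization, an offset of 50, a floor of 16, the mean of all probe sets, no shared probe sets, a filter that kept genes above the median level, a robust trended prior, the replicate block, only the groups compared, an unmoderated analysis of variance as in the study's methods but on these log2 values and with adjusted p-values, and leaving out each array.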

Additional observations from a re-analysis of the deposited data

Results flagged for a closer look

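Of 136 groups of 4 ovaries (34 genes in 4 genotypes), 4 (2.94%) held a value whose gap to the nearest of the others, divided by the range of the group, was above Dixon's critical value at the 95% level, and chance gives about 1 in 20. Taf4b was lowest in Foxl2 KO replicate 4 (ratio 0.878), at an intensity of 494.3 with the next at 625.9. Nlrp5 was lowest in Control replicate 4 (ratio 0.923), at 4373 with the next at 6173, and this is the ovary with the high erythroid score. Fmn2 was highest in Control replicate 2 (ratio 0.873), at 988.6 with the next at 805.5. Pabpc1l was highest in Runx1 KO replicate 4 (ratio 0.848), at 115.5 with the next at 73.57.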

How the results depend on the processing

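None of the 34 genes was called by limma in any of the 6 comparisons under any alternative run, 27 for each comparison and 26 for the interaction. The filter on low signal kept 25 of the 34 genes. The counts at an unadjusted p under 0.05 were 2 in Runx1 KO, 0 in Foxl2 KO, 0 in DKO, 0 for DKO against Foxl2 KO, 4 for DKO against Runx1 KO and 3 for the interaction, and the unmoderated analysis of variance also called 0. The smallest adjusted p among the alternatives was 0.415 in Runx1 KO, 0.139 in Foxl2 KO, 0.153 in DKO, 0.833 for DKO against Foxl2 KO, 0.121 for DKO against Runx1 KO and 0.590 for the interaction. Leaving out 1 ovary, the median difference from control ran from 0.208 to 0.481 in Runx1 KO, 0.080 to 0.378 in Foxl2 KO and -0.253 to 0.127 in DKO, where its sign turned without 3 of the ovaries. The lowest Foxl2 KO and DKO medians were without Control replicate 4 and the highest without Control replicate 1, and those in Runx1 KO were without Runx1 KO replicates 2 and 4. For DKO against Foxl2 KO it ran from -0.294 to -0.056 (without Foxl2 KO replicates 3 and 4), for DKO against Runx1 KO from -0.451 to -0.222 (without Runx1 KO replicates 4 and 2), and for the interaction from -0.560 to -0.244 (without Control replicates 1 and 4). The median SD within genotypes was 0.404 to 0.487 without 1 ovary and 0.370 to 0.516 under the other alternatives. Of 51 differences followed for the genes given ovary by ovary, 19 had the other sign under some alternative, and none of the 19 was called.

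With the replicate block 0 of the 34 genes were called in every comparison, and the median SD was 0.498. In that order of comparisons, over all genes the block gave 15, 220, 310, 7, 130 and 0 calls, against 22, 276, 388, 11, 180 and 2 without it. The residuals of same-numbered ovaries correlated above 0.1 in 1 of 24 pairs (median -0.0318). The standard errors of the egg coat and maternal genes limit what 4 ovaries per genotype can show.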
